A study of Mus musculus with 24 samples.

Results

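Broad H3K4me3 promoters are regions where trimethylation of histone H3 at lysine 4 runs over several kilobases instead of a narrow band at the start of a gene. They were chosen by measured width: every H3K4me3 peak of 4000 bp or more in the list of untreated macrophages with the empty vector LMP (LMP UT). This gave 553 of the 18951 peaks in that list, or 2.92%, and these held 8.65% of its covered length (2.78 Mb). Their widths ran from 4000 to 10421 bp, with a median of 4733 bp and quartiles at 4283 and 5466 bp. There were 217 of 5000 bp or more, 79 of 6000 bp or more and 8 of 8000 bp or more. The peaks of that list under 4000 bp had a median width of 1490 bp. Of the broad peaks, 542 (98.0%) had a score of 3100 or more, a value of the authors' peak score that many peaks share, against 45.9% of the narrower peaks. They lay on 20 chromosomes, 8 to 61 on each, and made up 1.51% to 4.53% of a chromosome's H3K4me3 peaks. The 3 narrowest members were 4000, 4003 and 4006 bp wide, and the 3 peaks just outside the limit were 3999, 3992 and 3991 bp wide.

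The cells were bone marrow-derived macrophages of FVB/Hsd mice at day 7 of differentiation, infected with retrovirus and selected with puromycin. The virus brought in either shWdr82, a short hairpin that targets Wdr82, or a control vector. Cells of both kinds were left untreated (UT) or received lipopolysaccharide (LPS), an outer membrane molecule of bacteria to which macrophages respond, at 10 ng/ml. Chromatin immunoprecipitation and sequencing was done with 6 antibodies. For H3K4me3 and H3K27ac the control vector was LMP, and LPS was given for 4 h by the titles. For total RNA polymerase II (Pol II), its form with phosphate on serine 2 (Ser2P), H3K36me3 and H3K4me1 the control was a scrambled hairpin, and the titles name 45 min of LPS, although the treatment text has 4 h throughout. All groups, controls included, thus share the viral infection and the drug selection, and only 1 hairpin sequence against Wdr82 is represented. Each group was 1 library, so no difference below has a replicate check, no test was run, and every interval covers counting error only.

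H3K4me3 is placed at active promoters largely by the SET1 and MLL methyltransferase complexes. WDR82 is a subunit of the SET1A and SET1B complexes and contacts the initiating form of Pol II, and it also belongs to a PNUTS phosphatase complex that acts in transcription termination. H3K4me1 usually flanks H3K4me3 at promoters and marks enhancers, H3K27ac marks active promoters and enhancers, and H3K36me3 is laid down over the bodies of transcribed genes by SETD2, which travels with elongating Pol II. Very wide H3K4me3 domains are known from many cell types, often at genes tied to the identity of the cell.

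The name promoter was set beside the other marks, which cannot settle it, since H3K27ac marks enhancers too. H3K27ac overlapped 98.0% of the broad peaks in LMP UT cells, and total Pol II overlapped 90.4% in scrambled UT cells. At 3000 to under 4000 bp these shares were 97.8% and 91.4%, and at all narrower peaks 70.1% and 66.2%. H3K36me3 in scrambled UT cells lay within 10000 bp of the broad peak on 1 side alone in 342 cases (61.8%). It lay on both sides in 146 (26.4%) and on neither in 65 (11.8%). At 3000 to under 4000 bp the shares were 57.0%, 26.3% and 16.7%, and at all narrower peaks 41.0%, 19.1% and 39.8%. Gene starts were not used here, since the gene table at hand has another genome build. Another H3K4me3 peak within 5000 bp was about as frequent as elsewhere, at 30.7% (95% exact interval 26.9 to 34.8) against 28.7% (28.0 to 29.3) of the narrower peaks.

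H3K4me3 was shorter at broad promoters in shWdr82 cells than in LMP cells after LPS, and the pair of LPS libraries is the comparison that did not use the list on which the members were chosen. The summed H3K4me3 length at these regions had a median of 4733 bp in LMP UT, 4457.5 bp in LMP LPS, 3695 bp in shWdr82 UT and 4017.5 bp in shWdr82 LPS. Both shWdr82 medians were below both LMP medians. The median log2 ratio of shWdr82 LPS over LMP LPS was -0.16 (95% interval -0.20 to -0.13, n = 549 regions with a peak in both), which is 10.75% shorter. At the narrower peaks the ratio was 0.031, or 2.18% longer. Of the 549 broad peaks, 445 (81.1%) were narrower in shWdr82 LPS cells, where 43.9% of all peaks were. There were 70 (12.8%) that were narrower by 1.5-fold or more, against 4.12% of all peaks, and 0 that were wider by as much. The median was below 0 on 20 of 20 chromosomes for the broad peaks, from -0.37 to -0.054, and on 0 of 20 for the narrower ones.

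**Figure D1:**
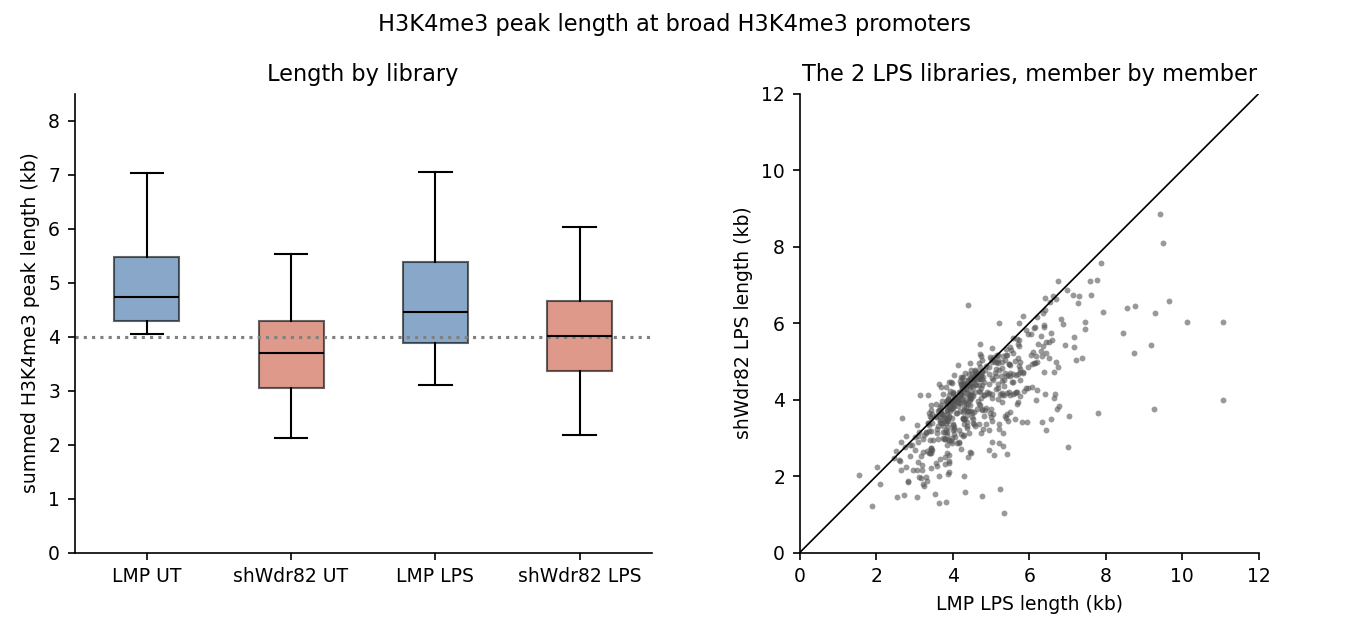
Summed length of H3K4me3 peaks at the 553 broad promoters, in kb. Left, boxes give the median and quartiles and whiskers the 5th and 95th percentiles in each of the 4 libraries, with the 4 kb limit of the choice as a dotted line, and the shWdr82 medians (3695 and 4017.5 bp) lie below the LMP medians (4733 and 4457.5 bp). Right, each point is 1 of 549 broad peaks in the 2 LPS libraries, and 445 lie below the line of equal length.

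In untreated cells the shortening was larger, but this pair includes the list that chose the members and is given as a description. The median log2 ratio of shWdr82 UT over LMP UT was -0.38 (-0.41 to -0.35, n = 551), or 23.0% shorter, against -0.19 at the narrower peaks. There 538 (97.6%) of the broad peaks were narrower, beside 81.6% of all peaks, and 170 (30.9%) were narrower by 1.5-fold or more, beside 11.1%. The shWdr82 UT list as a whole had shorter peaks, with a median of 1187 bp against 1526 bp in LMP UT, 1470 bp in LMP LPS and 1430 bp in shWdr82 LPS. It held 123 peaks of 4000 bp or more, against 281 in shWdr82 LPS, 508 in LMP LPS and 553 in LMP UT. Depth is unknown, so the part of library depth or enrichment in these widths was not tested.

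The ratio moved with width in steps. For shWdr82 LPS over LMP LPS the median log2 ratio was 0.18 at peaks of 500 to under 1000 bp, 0.027 at 1500 to under 2000 bp, -0.034 at 2500 to under 3000 bp, -0.12 at 4000 to under 5000 bp, -0.23 at 5000 to under 6000 bp and -0.27 (-0.36 to -0.20, n = 79) at 6000 bp or more. In these classes broad peaks lay at the far end of a trend that crossed 0 near 2000 bp. The classes were cut on LMP UT width, the value of the choice, and hold only regions with a peak in both lists. They were not recut on another list, so the part of this sorting in the trend was not tested. For shWdr82 UT over LMP UT the ratio ran from -0.13 at 500 to under 1000 bp to -0.60 (-0.73 to -0.49) at 6000 bp or more. The ratio of LMP LPS over LMP UT was nearer to 0 at the smallest peaks, -0.018 (-0.030 to -0.0044) at 500 to under 1000 bp, and lay between -0.11 and -0.074 in all wider classes: -0.085 at 1000 to under 1500 bp, -0.108 at 2500 to under 3000 bp, -0.083 at 4000 to under 5000 bp and -0.074 at 6000 bp or more.

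**Figure D2:**
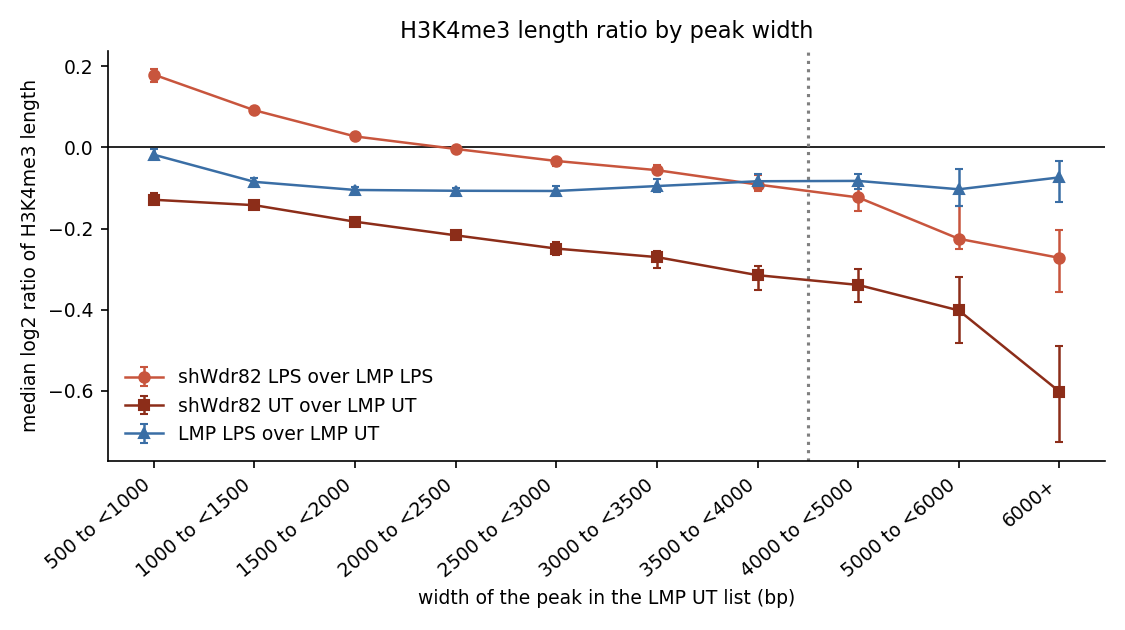
Median log2 ratio of summed H3K4me3 length (vertical) by the width of the peak in LMP UT (horizontal, in bp), with 95% intervals for counting error. This width also chose the members, and its part in the trend was not tested. The broad peaks are right of the dotted line, where both shWdr82 lines fall furthest (to -0.27 and -0.60) while LMP LPS over LMP UT stays between -0.10 and -0.074.

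Choosing wide peaks on 1 list favours that list, so the choice was also made on the others. For the 123 peaks of 4000 bp or more in shWdr82 UT, LMP UT was still the wider library, by 0.17 on the log2 scale. The LPS pair, which that choice did not use, gave -0.059 (-0.092 to -0.029) at these 123 peaks, and 88 of them were narrower in shWdr82 LPS. For the 281 chosen on shWdr82 LPS, LMP LPS was wider by 0.068, and for the 508 chosen on LMP LPS, shWdr82 LPS gave -0.23. The direction was the same for each of the lists, and the size changed from -0.059 to -0.23 with the list used.

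The difference in length lay mainly at 1 edge. Broad peaks were oriented by the flank that held more H3K36me3 in scrambled UT cells, which could be done for 487, and the edge on that side was set beside the other edge in peaks held as 1 unsplit peak in both libraries. Between shWdr82 LPS and LMP LPS (n = 345), the edge on the H3K36me3 side lay a median of 361 bp (249 to 478) further in, and the other edge 14 bp (1 to 36) further in. The former was further in for 297 (86.1%) of these peaks, against 56.7% of all H3K4me3 peaks. The other edge was further in for 192 (55.7%) of the broad peaks, against 39.8% of all peaks. Untreated, the shifts were 937.5 bp on the H3K36me3 side and 152 bp on the other (n = 282). These edges were further in for 98.2% and 87.6% of the broad peaks, and for 86.0% and 77.8% of all peaks. Between LMP LPS and LMP UT the shifts were 121 and 67 bp (n = 400). At peaks of 3000 to under 4000 bp the shWdr82 LPS shifts were 116 and -3 bp, and at 2000 to under 3000 bp they were 41 and -16 bp, where a negative value is an outward shift. The 2 edges of broad peaks therefore differed more than those of narrower peaks, and in the same direction.

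**Figure D3:**
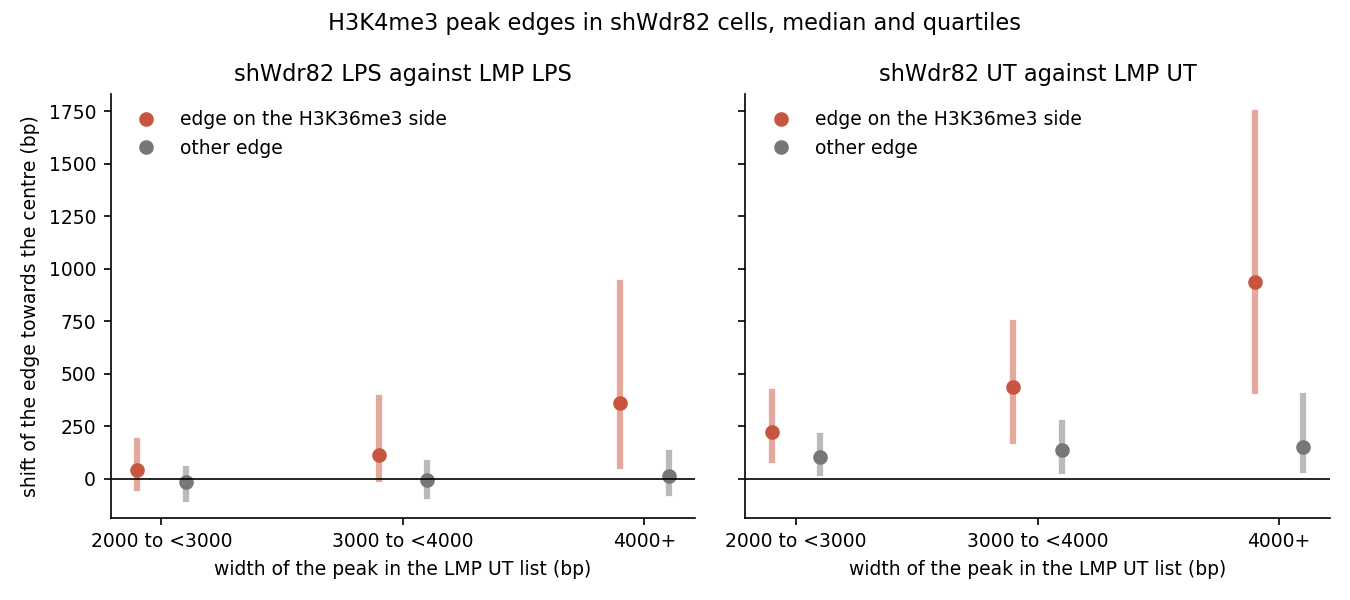
Inward shift of each H3K4me3 peak edge in shWdr82 cells (bp, vertical) by peak width in LMP UT (bp, horizontal), for the LPS pair on the left and the untreated pair on the right. Points are medians and bars run from the lower to the upper quartile, in peaks held once in both libraries. At 4000 bp or more the median shift was 361 and 937.5 bp for the edge on the H3K36me3 side, and for the other edge 14 and 152 bp.

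Broad peaks with H3K36me3 or H3K4me1 over at least 50% of their length in scrambled UT cells differed more in H3K4me3 length. In the LPS pair the median log2 ratio was -0.32 (-0.38 to -0.29, n = 155) where H3K36me3 covered at least 50% of the region and -0.098 (-0.13 to -0.076, n = 394) elsewhere. It was -0.30 with at least 50% H3K4me1 cover and -0.092 without, and -0.24 where H3K27ac covered the whole region and -0.079 where it did not. The intervals within each of these 3 pairs did not overlap. The values were closer for Pol II, with -0.16 where total Pol II had a peak in scrambled UT cells and -0.22 (-0.31 to -0.047, n = 51) where it had none. With and without Ser2P the values were -0.15 and -0.16. The H3K36me3 group was also wider to start with, at a median of 5161 bp against 4626 bp. So were the H3K4me1 group, at 4807 against 4650 bp, and the H3K27ac group, at 4828.5 against 4608 bp. The part of width in these contrasts was not tested.

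Splitting was most frequent in shWdr82 UT cells. A broad peak was counted as split where a list held 2 or more H3K4me3 peaks within it. This was so for 105 (18.99%, 15.8 to 22.5) in LMP LPS, 229 (41.4%, 37.3 to 45.6) in shWdr82 UT and 103 (18.6%, 15.5 to 22.1) in shWdr82 LPS. Over all H3K4me3 peaks the shares were 3.16%, 7.8% and 2.97%, but a wider region has more room for a gap, and at 3000 to under 4000 bp they were 9.95%, 21.5% and 8.40%. After LPS the split shares of shWdr82 and LMP cells differed by -0.36 percentage points (-4.18 to 3.46). There were 6, 36 and 7 broad peaks in 3 or more pieces, in the same order. Most gaps were small: the median of the largest gap was 61 bp in LMP LPS, 81 bp in shWdr82 UT and 91 bp in shWdr82 LPS, and 91.4%, 85.6% and 82.5% were of 500 bp or less. When peaks were joined over gaps of 500 bp or less, 1.63%, 5.97% and 3.26% of the broad peaks stayed split. Gaps lay on both sides, with 48.5% in shWdr82 UT, 45.6% in shWdr82 LPS and 59.8% in LMP LPS between the centre and the H3K36me3 side. The same 37 broad peaks were split in all 3 lists and 267 in none of them. Of the 103 split in shWdr82 LPS, 72.8% were also split in shWdr82 UT, which is 32.8% of the 229 there.

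**Figure D4:**
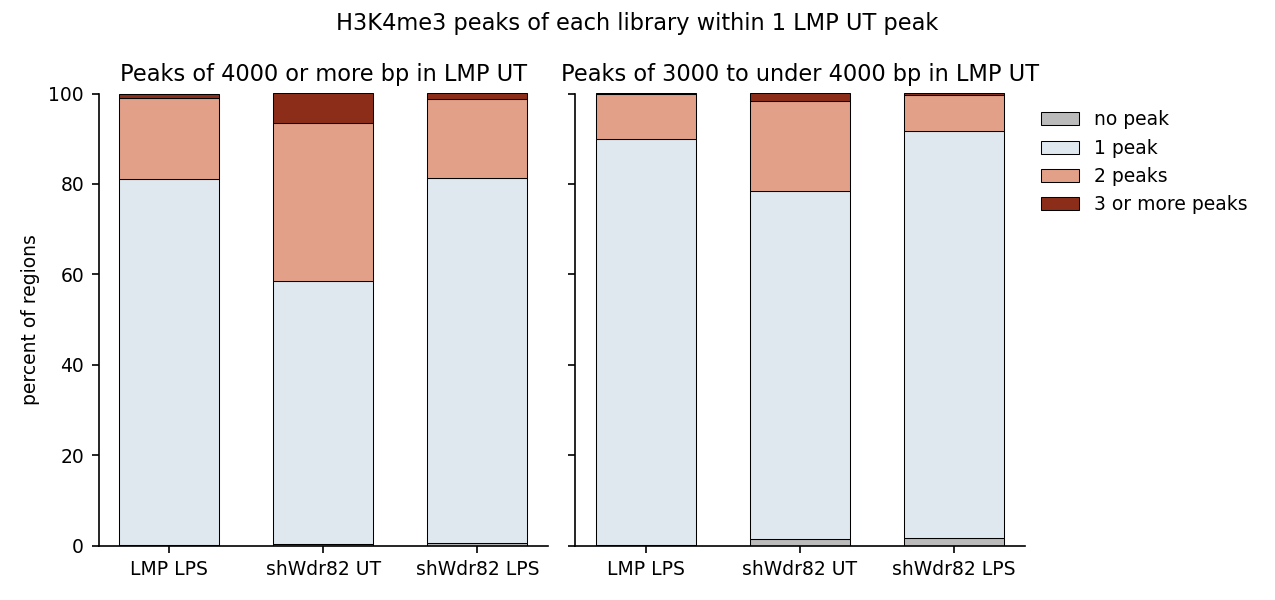
Percent of regions (vertical) with no, 1, 2 or 3 or more H3K4me3 peaks of a library inside 1 LMP UT peak, for the 553 broad peaks on the left and 1286 peaks of 3000 to under 4000 bp on the right. shWdr82 UT has the tallest split part in both panels, 41.4% and 21.5%.

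Broad peaks were almost never lost. The LMP LPS list had no peak at 1 of the 553, shWdr82 UT at 2 and shWdr82 LPS at 3. Over all H3K4me3 peaks 11.1%, 9.12% and 9.97% had none. At 3000 to under 4000 bp the peaks with none were 1, 18 and 21 of 1286, in the same order. At 2000 to under 3000 bp they were 16, 48 and 60 of 4307. Rare loss was thus not particular to broad peaks. All 4 lists held a peak at 549 of the broad peaks. A single H3K4me3 peak of 4000 bp or more was left at 228 (41.2%) in shWdr82 LPS, 116 (21.0%) in shWdr82 UT and 336 (60.8%) in LMP LPS. The summed length reached 4000 bp at 280 (50.6%), 192 (34.7%) and 380 (68.7%), in the same order. H3K4me3 peaks covered 89.1% of the members' length in LMP LPS, 72.8% in shWdr82 UT and 78.4% in shWdr82 LPS. The exception was a region at chr11:79334052-79338098 (mm9), 4047 bp wide in LMP UT and 3321 bp in LMP LPS, with no H3K4me3 peak in either shWdr82 library. The nearest shWdr82 H3K4me3 peaks were 3632 bp away untreated and 3494 bp away with LPS. H3K27ac and total Pol II covered 100.0% of it in all 4 libraries of each.

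H3K4me1 covered more of the broad promoters in shWdr82 than in scrambled cells, in both treatments, and the difference lay in their middle. At least 50% of the region was under H3K4me1 peaks in 58.0% of the broad peaks in shWdr82 UT and 45.8% in scrambled UT cells, a difference of 12.3 percentage points (8.23 to 16.4). With LPS it was 62.0% and 49.5%, which differ by 12.5 points (8.31 to 16.6). Untreated, 104 broad peaks passed that level in shWdr82 alone and 36 in scrambled alone, and after LPS 108 and 39. Over all H3K4me3 peaks the order was the reverse, with 9.42% in shWdr82 alone and 11.1% in scrambled alone untreated, and 8.87% and 11.8% after LPS. Narrower peaks differed by -2.07 points untreated and -3.43 points after LPS. Those of 3000 to under 4000 bp went the same way as broad peaks, by 8.09 points untreated and 4.74 points after LPS. At 2000 to under 3000 bp the differences were -2.11 and -2.72 points. More of the region was covered in shWdr82 at 382 broad peaks and less at 141 untreated, and at 385 and 141 after LPS. The length covered was higher in shWdr82 on 20 of 20 chromosomes untreated and on 17 after LPS.

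At the centre H3K4me1 was more frequent in shWdr82 cells, and at the flanks less frequent. The central 500 bp was marked, meaning at least 50% under H3K4me1 peaks, in 260 (47.0%) of the broad peaks in shWdr82 UT and 156 (28.2%) in scrambled UT cells, and in 270 (48.8%) and 170 (30.7%) after LPS. At the narrower peaks the centre was marked in 39.1% and 36.9% untreated, and in 43.4% and 42.6% after LPS. Those of 3000 to under 4000 bp were nearer to the broad peaks, with 33.4% and 19.2% untreated and 35.4% and 21.9% after LPS. The usual layout, H3K4me1 over at least 500 of the 1000 bp next to the region on both sides with a free centre, was found at 190 broad peaks (34.4%) in scrambled UT and 80 (14.5%) in shWdr82 UT cells, and at 181 (32.7%) and 69 (12.5%) after LPS. Neither flank was marked at 11.4% in scrambled UT and 21.3% in shWdr82 UT cells, and at 9.22% and 20.3% after LPS. At 3000 to under 4000 bp the usual layout was found at 33.6% in scrambled UT and 13.8% in shWdr82 UT cells. With LPS these were 33.8% and 14.8%. Neither flank was marked in that class at 11.4% and 23.6% untreated, and at 10.2% and 20.7% after LPS. The change was thus not particular to broad peaks. At broad peaks any overlap with an H3K4me1 peak was lower in shWdr82 although cover was higher. It was 87.3% against 91.9% untreated and 88.4% against 93.3% after LPS. Narrower peaks differed more in overlap, at 63.0% against 71.8% untreated and 66.5% against 74.6% after LPS. The shWdr82 H3K4me1 lists also had fewer high scores, with 4.77% and 6.17% of peaks at 1000 or more against 8.23% and 8.94% in the scrambled lists. The part of this in the flanks was not tested.

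**Figure D5:**
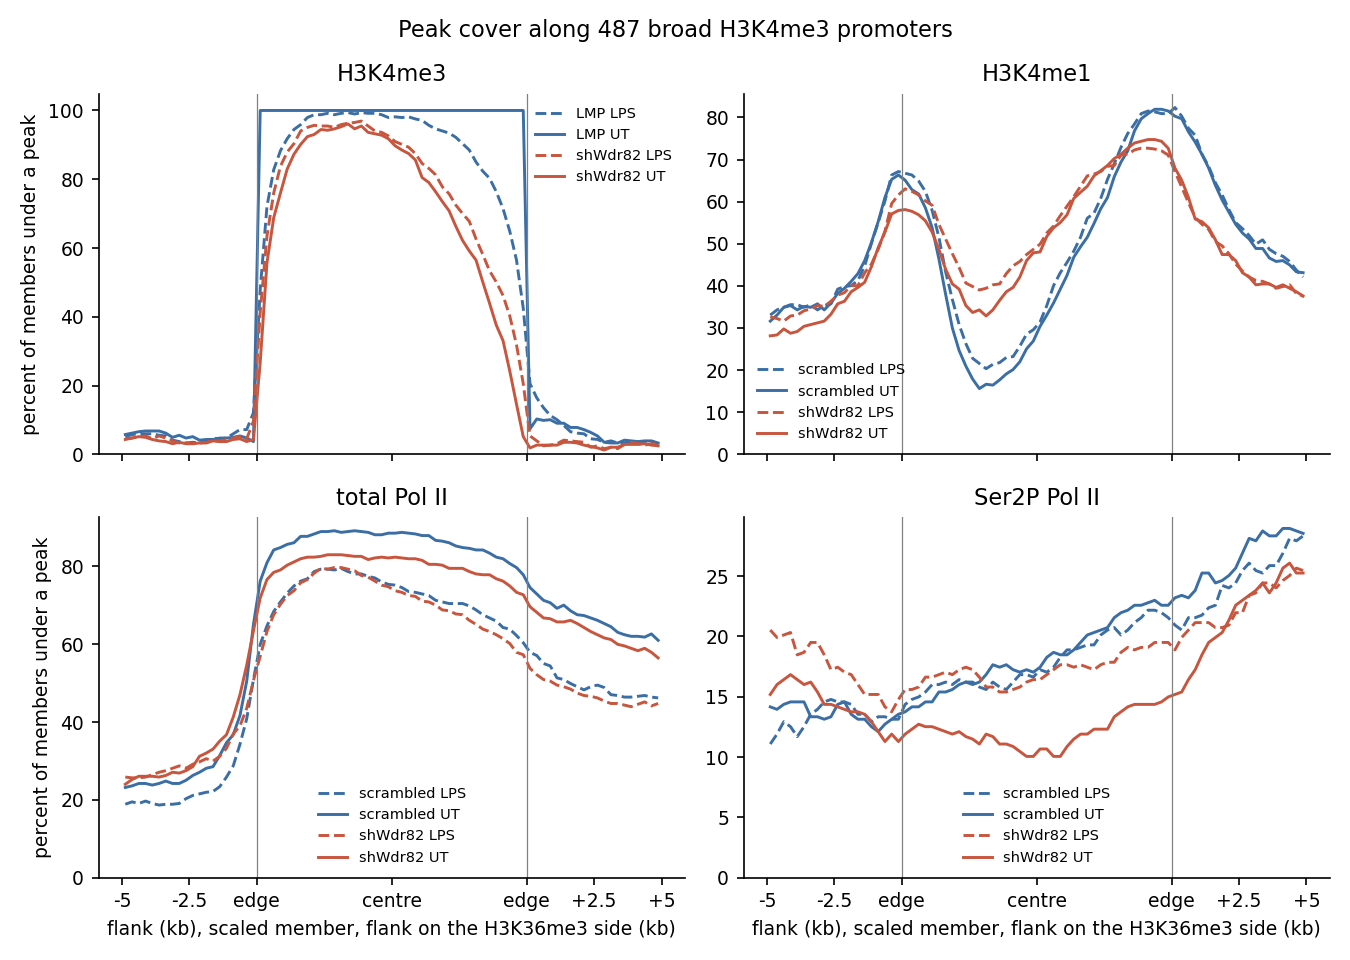
Percent of 487 oriented broad peaks under a peak of each antibody (vertical) along 5 kb of flank, the region scaled to 1 length, and 5 kb of flank on the H3K36me3 side (horizontal). Solid lines are untreated, dashed lines LPS. The lowest H3K4me1 value inside the region was 15.6% in scrambled UT and 32.9% in shWdr82 UT, while in the last bin on the H3K36me3 side shWdr82 lay lower, 72.7% against 81.5%.

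H3K4me1 was higher in shWdr82 cells in the part where both vectors had H3K4me3, and lower in the part where LMP cells alone had it. In the LPS libraries, the part of the broad peaks with H3K4me3 in both LMP and shWdr82 cells had 49.8% of its length under H3K4me1 in shWdr82 and 38.6% in scrambled cells, a difference of 11.2 points, higher in shWdr82 on 19 of 20 chromosomes. The part with H3K4me3 in LMP LPS alone had 75.9% and 83.4%, a difference of -7.48 points. Untreated, the kept part had 44.98% and 33.0% (11.99 points, 20 of 20 chromosomes) and the part in LMP UT alone 75.9% and 79.2% (-3.23 points). In the LMP-alone part of broad peaks shWdr82 was lower on 15 of 20 chromosomes untreated and on 13 after LPS. In peaks of 3000 to under 4000 bp the kept part differed by 6.26 points untreated and 6.51 after LPS, and at 2000 to under 3000 bp by -1.29 and -0.39 points. The LMP-alone part differed by -4.56 and -3.72 points at 3000 to under 4000 bp, and by -10.1 and -7.70 points at 2000 to under 3000 bp. The lower cover in that part was thus not particular to broad peaks. The control of H3K4me3 was LMP and that of H3K4me1 the scrambled hairpin, and the LPS times of these antibodies differ in the titles, so these base pairs set separate cultures side by side.

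Presence or absence of H3K4me1 over a whole broad peak followed the vector in few cases. There were 17 (3.07%) with an H3K4me1 peak in both scrambled libraries alone, below the 4.94% of all H3K4me3 peaks, and 4 (0.72%) with one in both shWdr82 libraries alone, where 1.0% of all peaks had that pattern. The 2 crossed patterns, which follow no factor of the design, held 3 each. The widest of the 17 was chr19:5795333-5804411, with H3K4me1 cover of 48.0% in scrambled UT, 20.4% in scrambled LPS and 0 in both shWdr82 libraries, whose nearest H3K4me1 peaks were 6256 and 6638 bp away. In the other direction chr14:106293601-106298794 had 0 in both scrambled libraries, 17.0% in shWdr82 UT and 19.5% in shWdr82 LPS.

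Total Pol II was less often called at broad promoters in shWdr82 cells without LPS and not with it. It overlapped 83.0% in shWdr82 UT and 90.4% in scrambled UT cells, a difference of -7.41 points (-10.2 to -4.67), and with LPS 83.5% and 83.2%, which differ by 0.36 points. Untreated, 11 broad peaks had total Pol II in shWdr82 alone and 52 in scrambled alone, where over all peaks the shares were 2.59% and 5.18%. After LPS the counts were 29 and 27, beside 4.68% and 3.46%. Peaks of 3000 to under 4000 bp differed by -4.82 points untreated and 1.56 points after LPS, and all narrower peaks by -2.45 and 1.24 points. The length under Pol II peaks was 77.1% against 83.0% untreated and 68.1% against 69.8% after LPS. Of the 52 broad peaks with total Pol II in scrambled UT alone, 39 were wholly covered there, while the nearest shWdr82 UT Pol II peak was a median of 17626 bp away, and of the 11 in shWdr82 UT alone 9 were. After LPS fewer were covered whole, 16 of the 27 in scrambled cells alone and 11 of the 29 in shWdr82 cells alone.

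With LPS fewer broad promoters had total Pol II in scrambled cells, and narrower peaks differed by more. The share overlapped differed by -7.23 points (-10.4 to -4.04) with LPS in scrambled cells, where 62 had a peak untreated alone and 22 with LPS alone, and by 0.54 points (-3.02 to 4.10) in shWdr82 cells, where the counts were 49 and 52. Cover of at least 50% was less frequent with LPS in both vectors, with a difference of -14.5 points (-18.3 to -10.6) in scrambled and -9.95 points (-14.2 to -5.73) in shWdr82 cells, and the contrast between the vectors was not tested. In scrambled cells the overlap differed by -9.72 points at 3000 to under 4000 bp and by -15.2 points at all narrower peaks. In shWdr82 cells these were -3.34 and -11.5 points. The whole total Pol II list held 32385 peaks in scrambled UT and 21891 in scrambled LPS cells, and 28497 and 22307 in shWdr82 cells. The part of list size in these shares was not tested. Over all H3K4me3 peaks, 17.3% had total Pol II in scrambled UT alone and 2.35% in scrambled LPS alone, and in shWdr82 cells these were 15.7% and 4.52%. Total Pol II also covered less of the flanks with LPS. On the H3K36me3 side it covered 60.3% of the next 10000 bp in scrambled UT and 45.6% in scrambled LPS cells, and 56.8% and 44.0% in shWdr82 cells. On the other side shWdr82 cells had more, with 27.5% and 25.7% against 25.4% and 19.4%. The difference between the vectors was therefore in opposite directions on the 2 sides of the region.

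Only a few broad promoters had total Pol II in a pattern that followed the vector in both treatments. There were 5 (0.90%) in both scrambled libraries alone, against 0.422% of all peaks, and 4 (0.72%) in both shWdr82 libraries alone, against 0.406% of all peaks. The crossed patterns held 5 and 0, 385 had total Pol II in all 4 libraries and 21 in none. The widest of the 5, chr14:75576149-75583003, had total Pol II over 100.0% in both scrambled libraries and no peak in either shWdr82 library, the nearest being 19784 bp away untreated and 72546 bp with LPS. Ser2P covered 79.4% and 100.0% of it in scrambled UT and LPS cells and 0 in shWdr82, and H3K4me1 covered 58.95% and 50.6% in scrambled cells and 0 in shWdr82. Its H3K4me3 length was 6855 bp in LMP UT, 5356 bp in LMP LPS, 3102 bp in shWdr82 UT and 3576 bp in shWdr82 LPS, and H3K36me3 cover was 86.8% and 88.1% in scrambled against 51.5% and 51.0% in shWdr82 cells. H3K27ac covered 100.0% of it in all 4 libraries, while the other 5 antibodies differed there. The reverse, chr2:152651453-152657676, had total Pol II over 100.0% in both shWdr82 libraries and none in scrambled cells, while its H3K4me3 was 6131 bp in LMP LPS and 4958 bp in shWdr82 LPS. At chr1:62748833-62755306, the widest broad peak without total Pol II in any library, H3K4me3 was 6474, 6831, 5366 and 6098 bp long in LMP UT, LMP LPS, shWdr82 UT and shWdr82 LPS. H3K4me1 there covered 33.0% and 34.8% in scrambled and 73.6% and 74.2% in shWdr82 cells.

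Ser2P Pol II, which marks elongation and is usually richest towards gene ends, was found at a minority of broad promoters, and less often in shWdr82 cells. It overlapped 22.4% in shWdr82 UT and 29.1% in scrambled UT cells, a difference of -6.69 points (-9.75 to -3.63), and with LPS 25.1% and 28.9%, which differ by -3.80 points (-6.72 to -0.87). Untreated, 20 broad peaks had Ser2P in shWdr82 alone and 57 in scrambled alone, beside 1.93% and 3.61% of all peaks. After LPS the counts were 24 and 45, beside 3.5% and 2.89%. At 3000 to under 4000 bp Ser2P was also less frequent in shWdr82, with 12.3% against 18.7% untreated and 15.3% against 17.0% after LPS. All narrower peaks together differed by -1.54 points untreated and by 0.75 points in the other direction after LPS. Cover of at least 50% was 9.58% against 15.7% untreated, but 15.4% in both vectors after LPS, where 36 broad peaks in shWdr82 and 20 in scrambled cells were covered whole. On the side away from H3K36me3, Ser2P covered 17.8% of the next 10000 bp in shWdr82 LPS and 11.5% in scrambled LPS cells, and untreated 14.6% and 12.5%. On the H3K36me3 side shWdr82 cells had less, 24.6% against 25.9% with LPS and 23.6% against 26.5% untreated. The whole Ser2P list covered 60.6 Mb in shWdr82 LPS and 44.7 Mb in scrambled LPS cells, and the part of this in the cover was not tested.

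Ser2P was present in both scrambled libraries alone at 17 (3.07%) of the broad promoters, against 0.67% of all peaks, and in both shWdr82 libraries alone at 3 (0.54%), against 0.369% of all peaks. The crossed patterns held 1 and 0. At chr4:63059580-63065627 Ser2P covered 100.0% in both scrambled libraries and 0 in both shWdr82 libraries, the nearest peaks being 31605 and 8280 bp away, while total Pol II covered 100.0% in all 4. Among the 3 in the other direction, chr1:84277694-84281836 had Ser2P over 71.1% in shWdr82 UT and 88.3% in shWdr82 LPS cells and none in scrambled cells, whose nearest Ser2P peaks were 246592 and 246405 bp away. H3K4me1 cover there was 64.2% and 60.6% in scrambled cells and 13.0% and 16.4% in shWdr82 cells, opposite to most broad peaks.

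H3K27ac was present at nearly all broad promoters, and differed after LPS in how much of them it covered. It overlapped 98.0% of the broad peaks in both untreated libraries, and 96.0% in shWdr82 LPS against 96.4% in LMP LPS, with 525 overlapped in all 4. H3K27ac covered the whole region in 58.6% in shWdr82 UT and 57.1% in LMP UT cells, and with LPS in 55.5% and 63.5%, which differ by -7.96 points (-11.4 to -4.51). In the part with H3K4me3 in LMP LPS alone, 83.4% of the length was under H3K27ac in shWdr82 LPS and 90.9% in LMP LPS cells, a difference of -7.54 points, with LMP higher on 17 chromosomes and shWdr82 on 1. In the part with H3K4me3 in both LPS libraries the values were 92.2% and 93.1%. Peaks of 3000 to under 4000 bp differed by similar amounts with LPS, -7.62 points in whole cover and -7.53 points in the LMP-alone part. At 2000 to under 3000 bp these were -8.80 and -8.13 points. H3K36me3 covered at least 50% of the region in 21.7% of broad peaks in shWdr82 UT and 28.6% in scrambled UT cells. These differed by -6.87 points, and after LPS the shares were 21.2% and 21.7%. Over all H3K4me3 peaks, 1.86% had that cover in scrambled UT alone and 0.485% in shWdr82 UT alone.

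With LPS, H3K4me3 at broad promoters was shorter in LMP cells and longer in shWdr82 cells than without. The median log2 ratio of LMP LPS over LMP UT was -0.087 (-0.105 to -0.068) at the broad peaks and -0.085 at the narrower ones, where 66.6% of all peaks were narrower with LPS. The ratio of shWdr82 LPS over shWdr82 UT was 0.083 at the broad and 0.13 at the narrower peaks, where 78.7% of all peaks were wider with LPS. Broad peaks did not stand apart in the LMP ratio, which also shares its list with the choice.

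The 5 widest regions are given as single cases. They were picked by width in LMP UT, which favours that list, so their lengths only describe them. The widest, chr3:89190520-89200940, measured 10421 bp in LMP UT, 10126 bp in LMP LPS, 6007 bp in shWdr82 UT and 6036 bp in shWdr82 LPS. Both shWdr82 libraries lay far below both LMP libraries there, while H3K27ac cover stayed between 91.1% and 98.9% in all 4. At chr8:129110179-129120240 the H3K4me3 lengths were 10062, 9294, 6884 and 6264 bp in the same order, with 4 pieces in shWdr82 UT and 2 in shWdr82 LPS. Its H3K4me1 cover was 25.6% in scrambled UT, 38.0% in scrambled LPS, 63.0% in shWdr82 UT and 81.1% in shWdr82 LPS, with total Pol II over at least 98.2% in all 4. The region at chr10:59739666-59749712 measured 10047, 8743, 5534 and 5212 bp, and had total Pol II over 100.0% without LPS and none with LPS in both vectors. The region at chr17:34252828-34262384 was the least different of the 5, with 9557, 9491, 7774 and 8098 bp. The fifth, chr19:5795333-5804411, had 9079, 7466, 5489 and 5835 bp, and Ser2P over at least 97.4% in all 4 libraries.

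The largest falls between the LPS libraries, among regions that were also shorter in the untreated pair, were on other chromosomes. At chr6:122799692-122806424 H3K4me3 measured 6733 bp in LMP UT, 5333 bp in LMP LPS, 951 bp in shWdr82 UT and 1043 bp in shWdr82 LPS. Its log2 ratio in the LPS pair was -2.35, the lowest of the 549. Total Pol II covered 100.0% of it in all 4 libraries, while Ser2P covered 86.9% and 80.3% in scrambled UT and LPS cells and 23.0% and 8.21% in shWdr82 UT and LPS cells. The next was chr7:52711921-52716815, with 4895, 4765, 2035 and 1471 bp and a log2 ratio of -1.70. There Ser2P covered at least 99.8% in all 4 libraries. The others were chr11:69474988-69479688 (4701, 5224, 3701 and 1674 bp), chr14:32245607-32249850 (4244, 3822, 1284 and 1330 bp) and chr9:108010221-108014345 (4125, 3629, 2236 and 1296 bp). The last had no H3K27ac peak in shWdr82 LPS, 42.0% cover in LMP LPS and at least 98.1% in both untreated libraries.

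Regions longer in shWdr82 cells differed little. The largest such ratio with the same direction in the untreated pair was at chr11:63733697-63738034, with 4338, 3690, 4453 and 4336 bp in LMP UT, LMP LPS, shWdr82 UT and shWdr82 LPS and a log2 ratio of 0.23 in the LPS pair. It had no H3K27ac, H3K36me3 or Ser2P peak in any library and H3K4me1 over 85.1% to 100.0%. The other 4 had log2 ratios from 0.0088 to 0.17 in the LPS pair. Of these, chr6:127099040-127105477 measured 6438, 6761, 6629 and 7110 bp.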

How the data were processed

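The data are 24 peak lists of 6 antibodies, 2 vectors and 2 treatments, 756484 peaks in all. The submitters' processing notes name Bowtie 0.12.7, MACS 1.4 and the mm9 build. The deposited lists give each peak's start and end, which are other values set by the authors' peak calling, and a score, the authors' own value, from 50 to 3233. Peaks were called per library. Depth is unknown, because neither read numbers nor inputs are stated in the labels or lists, and a wider peak can come from deeper sequencing or from the cells.

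Width was column 3 minus column 2 of the lists, whose starts count from 0. Printed positions count from 1, so that a printed start is 1 higher than in the list. At each LMP UT peak the lengths of overlapping peaks (at least 1 bp) were summed within each library, and ratios of sums are log2. Shares carry exact Clopper-Pearson 95% intervals, differences of shares paired Wald intervals, and medians order-statistic intervals. These cover counting error only. With 1 library a group no test was run. The side of a region was the 10000 bp flank with more H3K36me3 in scrambled UT cells. Functions were tested on simulated lists. Python 3.11.15, numpy 2.4.6, pandas 2.3.3 and scipy 1.17.1 were used.

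The members and lists were chosen with earlier results of these data known. Regions were named by rule: the 5 widest, the 5 largest falls and rises in the LPS pair with the same direction untreated, those without H3K4me3 in both shWdr82 libraries, the 3 with most pieces, the 3 widest for each vector-only pattern of total Pol II, Ser2P and H3K4me1, the 3 widest without total Pol II, and 3 on each side of the limit. Not all are printed. Gene names and sequences were not joined, since the reference tables are on another build.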

Additional observations from a re-analysis of the deposited data

Results flagged for a closer look

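At broad H3K4me3 promoters several differences had opposite signs in the 2 treatments or the 2 vectors. None of these contrasts between groups was tested, since each group is 1 library, and those near 0 are within counting error.

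Total Pol II overlap differed between shWdr82 and scrambled cells by -7.41 points untreated and 0.36 points after LPS, and its LPS minus untreated difference was -7.23 points in scrambled and 0.54 points in shWdr82 cells. Ser2P overlap with LPS minus without was -0.18 points in scrambled and 2.71 points in shWdr82 cells, and for cover of at least 50% it was -0.36 and 5.79 points. The median log2 ratio of H3K4me3 length with LPS over without was -0.087 in LMP and 0.083 in shWdr82 cells. H3K27ac cover of at least 50% differed between shWdr82 and LMP cells by 0.72 points untreated and -0.90 points after LPS. H3K36me3 overlap differed between shWdr82 and scrambled cells by -0.72 points untreated and 1.09 points after LPS.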

How the results depend on the processing

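Of 174 values recomputed under an alternative, 131 stayed within the 95% interval of the main value (counts, within 1.5 times) and 43 did not. A sign other than the main one came up 3 times, each with members of 5000 bp or more and a main interval that includes 0, for cover of at least 50%: H3K27ac untreated went from 0.72 to -0.46 points, H3K27ac after LPS from -0.90 to 0.46 and H3K36me3 after LPS from -0.54 to 0.46. With members of 3000 bp or more, the median log2 ratio was -0.089 in the LPS pair and -0.31 in the untreated pair, 12.7% were split in LMP LPS, 27.5% in shWdr82 UT and 11.5% in shWdr82 LPS, and the H3K4me1 difference at 50% cover after LPS was 7.07 points. With members of 5000 bp or more, the ratios were -0.23 and -0.47 and the split shares 22.6%, 47.9% and 22.6%. With scores of at least 100, the split shares were 15.2%, 32.2% and 14.6% and the untreated Ser2P difference -3.44 points. With the lists of an antibody limited to an equal number of top-scoring peaks, 32.55% were split in shWdr82 UT. In both of these settings the LMP UT H3K4me3 list, on which the members were chosen, was kept whole. With peaks joined over 500 bp, the split shares were 1.63%, 5.97% and 3.26%. With the widest overlapping peak in place of the sum, the untreated pair gave -0.66 and LMP LPS over LMP UT -0.13. With members chosen on shWdr82 UT, the LPS pair gave -0.059, the untreated pair -0.17 and LMP LPS over LMP UT -0.052. Where a value moved, the cause was not tested. No paired analysis was possible because each group has 1 library and the comparisons come from no test. No replicate could be left out for the same reason.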
